A study of Homo sapiens with 6 samples.

Results

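Stem-like states of breast cancer cells were examined through 8 marker genes, CD24, CD44, EPCAM, PROM1, ALDH1A1, ALDH1A3, SOX9 and KLF4, in MDA-MB-231GlnIND cells and in the parental MDA-MB-231 line. The 8 genes were chosen by name from 28265 gene rows, with the contrast between the groups already known, so their values are given as a description without a test. All 8 were listed in the count tables, and 6 passed the filter on low counts, while PROM1 and ALDH1A1 did not.

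MDA-MB-231 is an established human triple-negative breast cancer line, meaning that it lacks the estrogen and progesterone receptors and amplified HER2. The GlnIND group consisted of glutamine-independent derivatives of that line kept for over 6 weeks without glutamine, in RPMI 1640 with dialyzed serum. The parental group was grown in glutamine-replete RPMI 1640 with undialyzed serum, which means that glutamine, serum type and the cells themselves differed at once and cannot be told apart. Each of the 2 groups had 3 libraries of polyA RNA, with no statement in the labels on separate cultures or clones. The spread behind each p-value is that among libraries and could be technical alone.

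Total counts ranged from 21276815 to 24594248 per library in the GlnIND group and from 18256219 to 21741371 in the parental group. Levels are in CPM, counts scaled to library size, with trimmed-mean (TMM) factors, and a log2 fold change is GlnIND over parental with its standard error (SE). Low counts were even in 60.6% to 65.0% of genes with 1 to 19 counts, a pattern that counting both mates of each pair would give, so the detection floor was set at 6 counts, or 0.230 to 0.343 CPM in a library. The labelled identity was checked on its markers. VIM, a mesenchymal filament gene, averaged 6077 ± 71.6 CPM in GlnIND cells and 3979 ± 272 CPM in parental cells (SD, n = 3 each). The estrogen receptor gene ESR1 had 14 counts over the GlnIND libraries and 6 over the parental libraries, and the progesterone receptor gene PGR had 8 and 2.

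Cells able to seed mammary tumours were first enriched by a surface pattern of high CD44 and low CD24. CD44 is a receptor for hyaluronan, and CD24 is a small, heavily glycosylated protein anchored to the membrane by a lipid. EPCAM and PROM1 (CD133) mark epithelial and progenitor states, and ALDH1A1 and ALDH1A3 are the enzymes that contribute most to the aldehyde dehydrogenase activity used to sort such cells and that make retinoic acid. SOX9 and KLF4 are transcription factors of mammary progenitor states and of reprogramming. MDA-MB-231 is known as a mesenchymal line in which most cells carry the CD44-high, CD24-low pattern.

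CD24 was higher and CD44 lower in GlnIND cells, and EPCAM was far lower. CD24 was at 31.7, 31.3 and 32.5 CPM in GlnIND libraries 1, 2 and 3, against 10.0, 11.7 and 10.2 CPM in parental libraries 1, 2 and 3. Every GlnIND library lay above every parental one, and the log2 fold change was 1.58 (SE 0.101), or 2.99-fold. CD24 has near-identical processed pseudogenes, listed as CD24P1, CD24P2 and CD24P4 in the GENCODE annotation and absent from the rows of the count tables, so reads could have been lost to them or gained from them. The counts were made on hg19, while the CD24 position used here is from GRCh38.p14. Which CD24 copy the counted row rests on is not stated. This limit also holds for its ratios, its level per length and the genes set around it.

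CD44 was at 775, 806 and 773 CPM in GlnIND libraries 1 to 3, against 1048, 951 and 908 CPM in parental libraries 1 to 3. The groups did not overlap, and parental library 1 was the highest. The log2 fold change was -0.30 (SE 0.0683), or 1.23-fold lower in GlnIND cells. Per length, CD44 was the most abundant of the 8 transcripts in both groups.

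The promoter sequences of this pair are shown because CD24 and CD44 define the classic surface pattern and differed in opposite directions. They come from RefSeq (GRCh38.p14) and run from 250 bases before to 50 bases after the first listed transcript start, 5′ to 3′ on the gene's strand. CD24 is at chr6:106975578-106975877 (minus strand) and CD44 at chr11:35138921-35139220 (plus strand). Capitals mark matches on either strand to the E-box CACCTG recognised by Snail and ZEB repressors, the SOX core ACAAAG, the KLF box GGGTGTG or the TATA box TATAAA.
CD24: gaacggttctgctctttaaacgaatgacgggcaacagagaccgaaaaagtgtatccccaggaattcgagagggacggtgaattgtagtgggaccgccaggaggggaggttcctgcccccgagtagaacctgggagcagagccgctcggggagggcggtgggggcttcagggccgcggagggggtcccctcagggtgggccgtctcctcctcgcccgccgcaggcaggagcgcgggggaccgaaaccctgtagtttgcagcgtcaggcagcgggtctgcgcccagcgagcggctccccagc
CD44: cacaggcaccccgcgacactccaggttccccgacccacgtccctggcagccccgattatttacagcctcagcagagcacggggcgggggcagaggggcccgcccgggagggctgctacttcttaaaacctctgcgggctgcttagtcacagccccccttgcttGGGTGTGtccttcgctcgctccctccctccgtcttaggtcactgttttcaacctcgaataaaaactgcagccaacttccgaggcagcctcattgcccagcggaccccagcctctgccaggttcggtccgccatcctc

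Among 35116 RefSeq promoters of this length, 20.6% held the E-box, 16.1% the SOX core, 7.56% the KLF box and 11.5% the TATA box on at least 1 strand. The printed CD24 promoter held none of these letters, and the CD44 promoter held the KLF box at 1 position. RefSeq lists further CD24 starts, and the windows of start 2 and start 3 each held the SOX core at 1 position, with an E-box at 1 position in that of start 3. A match of letters describes the sequence and does not show binding.

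EPCAM, the epithelial adhesion molecule, was at 1.88, 2.16 and 2.61 CPM in GlnIND libraries 1 to 3, from 42, 52 and 68 counts. In parental libraries 1 to 3 it was at 17.2, 13.7 and 12.0 CPM, from 346, 240 and 231 counts. No GlnIND library came near a parental one. The log2 fold change was -2.68 (SE 0.190), or 6.41-fold lower in GlnIND cells. EPCAM-DT, the noncoding transcript listed next to it, had 1, 5 and 3 counts in GlnIND libraries and 8, 2 and 2 in parental libraries.

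PROM1 had 2, 8 and 4 counts in GlnIND libraries 1 to 3 and 0 counts in every parental library. Only GlnIND library 2, at 0.333 CPM, stood at or above the detection floor of its library. Summed over each group, the 14 GlnIND counts were 1.83-fold the floor of 6 counts that 0 parental counts allow, on the CPM scale. The counting error of the 14 counts is left out of this value. At this depth PROM1 was thus close to undetected in both groups.

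**Figure D1:**
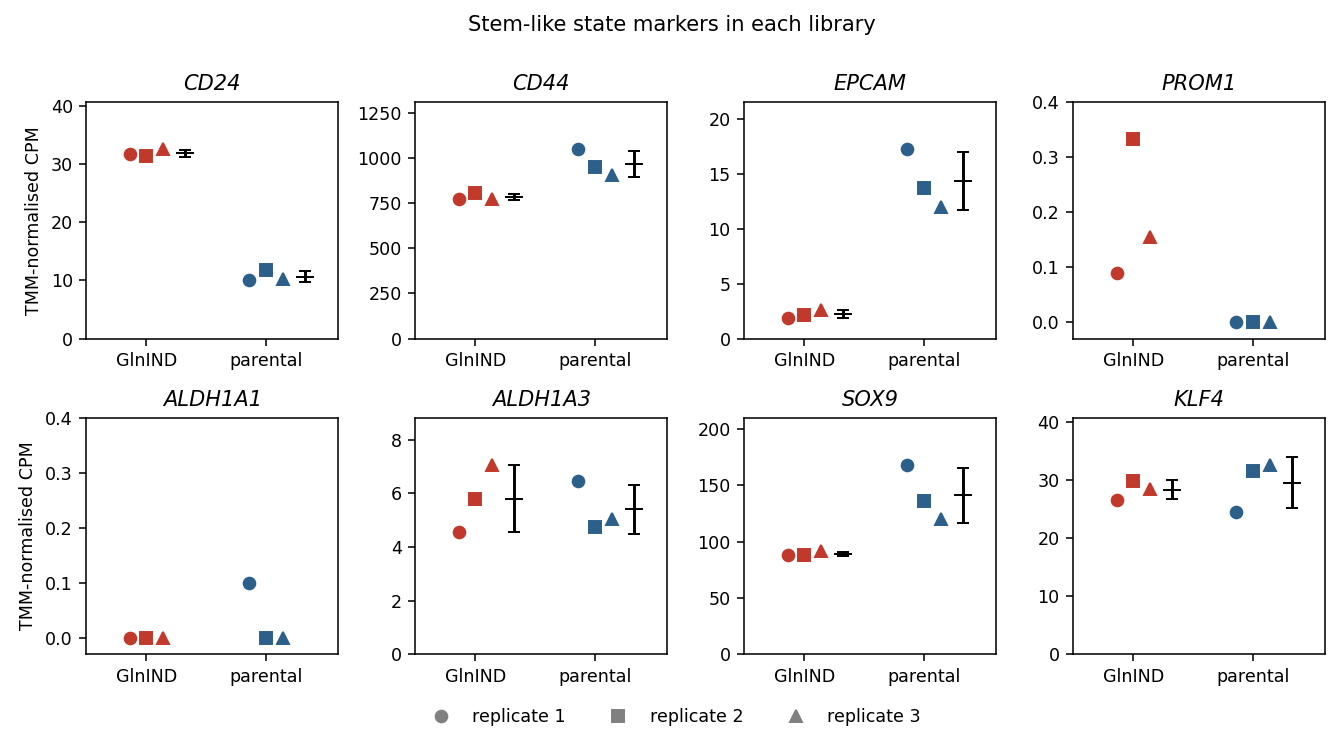
TMM-normalised CPM of the 8 genes in each library, GlnIND libraries in red on the left and parental libraries in blue on the right of each panel, with marker shapes for replicates and black bars for mean ± SD of the 6 genes that passed the filter. CD24 lies higher and EPCAM, CD44 and SOX9 lie lower in all 3 GlnIND libraries, the points of ALDH1A3 and KLF4 overlap, and PROM1 and ALDH1A1 stay at or below 0.333 CPM.

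Ratios of counts within a library do not depend on scaling between libraries. The ratio of CD44 to CD24 counts was 24.5, 25.8 and 23.8 in GlnIND libraries 1 to 3, against 105, 81.5 and 88.7 in parental libraries 1 to 3. On a log2 scale it was 4.62 ± 0.06 in GlnIND cells and 6.51 ± 0.18 in parental cells (SD, n = 3 each), a 3.69-fold lower ratio in GlnIND cells. CD44 counts still outnumbered CD24 counts in every library, and the value of such a ratio also depends on the lengths of both transcripts. The ratio of CD24 to EPCAM counts was 16.8, 14.5 and 12.5 in GlnIND libraries 1 to 3, against 0.584, 0.850 and 0.853 in parental libraries 1 to 3. CD24 counts exceeded EPCAM counts in all 3 GlnIND libraries and were below them in all 3 parental libraries, a difference of 19.3-fold. The ratio of CD44 to EPCAM lay between 296 and 411 in GlnIND libraries and between 61.0 and 75.6 in parental libraries. In bulk RNA, a change in the number of cells that carry a marker and a change in the RNA per cell cannot be told apart.

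**Figure D2:**
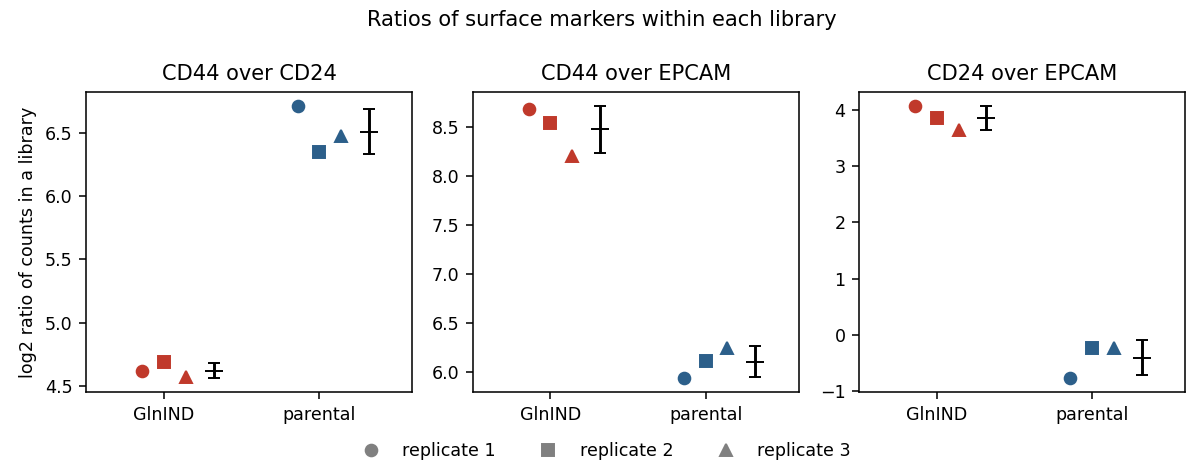
Log2 ratio of counts of CD44 over CD24, CD44 over EPCAM and CD24 over EPCAM in each library, with GlnIND libraries in red on the left, parental libraries in blue on the right and black bars for mean ± SD (n = 3). The CD44 to CD24 ratio is 3.69-fold lower, and the CD24 to EPCAM ratio 19.3-fold higher, in GlnIND libraries.

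ALDH1A1 and ALDH1A3 both oxidise retinaldehyde, and only ALDH1A3 was measurable. ALDH1A1 had 0 counts in the GlnIND libraries and 2 counts in all parental libraries together, both in library 1, and both groups were under the floor. ALDH1A3 was at 4.57, 5.78 and 7.06 CPM in GlnIND libraries 1 to 3, against 6.45, 4.75 and 5.04 CPM in parental libraries 1 to 3. The groups overlapped, and the log2 fold change was 0.10 (SE 0.199). It stood at -0.07 without GlnIND library 3, the highest of the group, so it has no stable sign.

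The promoters of both enzymes are shown because 1 gene was at or below the floor and its paralogue was expressed. They are RefSeq windows of the same kind, ALDH1A1 at chr9:72953004-72953303 (minus strand) and ALDH1A3 at chr15:100879581-100879880 (plus strand), with capitals as above.
ALDH1A1: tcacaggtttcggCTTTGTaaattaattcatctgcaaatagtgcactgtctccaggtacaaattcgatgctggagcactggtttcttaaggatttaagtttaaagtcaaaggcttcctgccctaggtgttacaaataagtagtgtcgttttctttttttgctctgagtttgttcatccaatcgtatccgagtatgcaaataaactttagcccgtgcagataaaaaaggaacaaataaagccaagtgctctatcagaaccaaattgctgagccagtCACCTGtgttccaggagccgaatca
ALDH1A3: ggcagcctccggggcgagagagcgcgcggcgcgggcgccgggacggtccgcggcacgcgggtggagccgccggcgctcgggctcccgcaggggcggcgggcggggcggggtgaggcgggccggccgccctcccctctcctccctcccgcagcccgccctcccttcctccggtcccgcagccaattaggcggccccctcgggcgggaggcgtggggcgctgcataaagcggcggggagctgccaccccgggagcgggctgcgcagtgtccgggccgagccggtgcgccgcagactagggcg

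The ALDH1A1 window was 40.3% G or C with 7 CpG dinucleotides, and held an E-box and a SOX core at 1 position each. The ALDH1A3 window was 81.7% G or C with 46 CpG dinucleotides and held none of the searched motifs. Over all RefSeq promoters the median was 58.7% G or C and 14 CpG dinucleotides. The first listed windows of CD24, CD44, PROM1 and KLF4 held 25, 18, 18 and 33 CpG dinucleotides.

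SOX9 was at 88.0, 87.7 and 91.4 CPM in GlnIND libraries 1 to 3, against 168, 136 and 120 CPM in parental libraries 1 to 3. The GlnIND libraries lay close together and all below the parental ones, among which library 1 was again the highest. The log2 fold change was -0.66 (SE 0.110), or 1.59-fold lower in GlnIND cells, and -0.53 without parental library 1. The antisense gene SOX9-AS1 had 4 to 9 counts in every library.

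KLF4 was at 26.6, 29.9 and 28.5 CPM in GlnIND libraries 1 to 3, against 24.5, 31.5 and 32.6 CPM in parental libraries 1 to 3. The parental range enclosed the GlnIND range. The log2 fold change was -0.06 (SE 0.119), and its sign turned with scaling, to 0.03 under upper-quartile factors and to 0.09 under library totals. GENCODE lists a processed pseudogene, KLF4P1, that is not among the rows of the count tables.

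Of the 6 members that passed the filter, 4 had CPM ranges that did not overlap between the groups, namely CD24, CD44, EPCAM and SOX9. The same held for 65.0% of all 13949 tested genes, and since the members were chosen with this contrast known, nothing is read from their share. The median log2 fold change of all tested genes was 0.03, and it shifted by 0.15 with library totals. Relative to that median, CD24 stood at 1.55, EPCAM at -2.71, ALDH1A3 at 0.07 and KLF4 at -0.09 under TMM factors and library totals alike. CD44 stood at -0.34 and -0.33, and SOX9 at -0.70 and -0.69. A change of scaling moves every gene by nearly the same amount, so this agreement was fixed in advance and is no test of stability. Without the median taken off, CD44 stood at -0.30 under TMM factors and at -0.15 under library totals.

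Levels were compared between genes as CPM per kilobase of annotated exon (GENCODE 29, an annotation other than that of the count tables). In GlnIND cells the order was CD44 at 129, SOX9 at 22.6, CD24 at 10.5, KLF4 at 9.66, EPCAM at 1.10 and ALDH1A3 at 1.07 CPM per kilobase. In parental cells it was CD44 at 159, SOX9 at 35.9, KLF4 at 10.1, EPCAM at 7.11, CD24 at 3.49 and ALDH1A3 at 0.998 CPM per kilobase. CD24 thus stood above EPCAM in GlnIND cells and below it in parental cells. EPCAM and ALDH1A3 could not be ordered in GlnIND cells, where their libraries spanned 0.937 to 1.30 and 0.843 to 1.30 CPM per kilobase. KLF4 and EPCAM overlapped in parental cells, at 8.35 to 11.1 and 5.97 to 8.54 CPM per kilobase.

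To set each value beside that of its region, the genes around a member were also followed. For each member the 20 tested genes on either side were taken in RefSeq order (GRCh38.p14). The neighbours of CD24 and EPCAM had median log2 fold changes of -0.04 and -0.02, while the genes themselves stood at 1.58 and -2.68. The neighbours of CD44 had a median of -0.28, against -0.30 for CD44 itself, and its flanking tested genes PDHX and FJX1 stood at -0.58 and -0.29. Around KLF4 the median was -0.66, so KLF4, at -0.06, lay 0.60 above the genes around it. Around SOX9 the median was 0.21, which put SOX9 at -0.87 relative to its neighbours, and around ALDH1A3, near a chromosome end with 28 such genes, it was 0.20. The quartiles of the neighbours were -0.53 and 0.15 around CD44, -0.08 and 0.61 around SOX9, and -0.96 and -0.30 around KLF4. Whether the region had a part in the values of CD44, SOX9 and KLF4 was not tested.

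**Figure D3:**
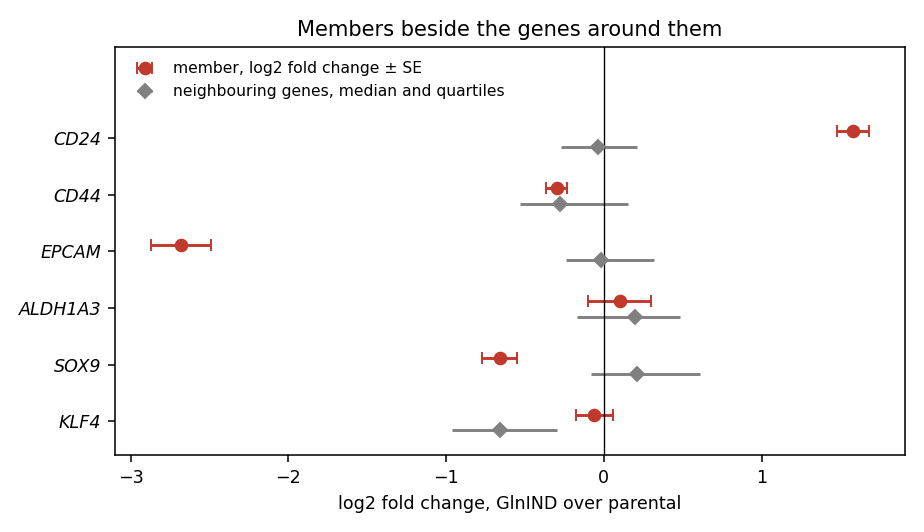
Log2 fold change, GlnIND over parental, of the 6 genes that passed the filter (red, with SE) and the median and quartiles of the tested genes around each (gray, 28 genes for ALDH1A3 and 40 for the others). CD24 and EPCAM lie far from their neighbours, CD44 lies on the median of its neighbours at -0.28, and KLF4 lies above its neighbours at -0.66.

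By Pearson correlation of log2 CPM over the 6 libraries, the tested gene most like CD24 was EPHA3, an ephrin receptor (r = 1.000), at 45.5 ± 3.45 CPM in GlnIND cells and 1.01 ± 0.270 CPM in parental cells (SD, n = 3 each). EPCAM was matched best by COPB1, a coat protein gene of transport vesicles (r = 1.000), at 262 ± 5.78 CPM in GlnIND cells and 358 ± 11.8 CPM in parental cells (SD, n = 3 each). The measure ignores the size of a change, and with libraries in 2 groups such values are common: 264 of 10586 genes reached 0.99 with CD24 and 368 with EPCAM. The best matches of CD44, SOX9, KLF4 and ALDH1A3 were NMI (0.998), ERO1A (0.998), SLC39A3 (0.986) and ZNF607 (0.969).

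Around these markers, 10 lists of related genes were followed in the same fit over all genes, by the quasi-likelihood test of edgeR, adjusted after Benjamini and Hochberg over 13949 tested genes. Each gene counted once, 159 of 223 listed genes were tested, of which 54 rose and 52 fell in GlnIND cells at an adjusted p under 0.05. Over all tested genes 56.3% were called, 28.4% higher (3965 genes) and 27.9% lower (3888 genes), so a share of calls near these values says nothing particular about a list. With library totals in place of TMM factors the called genes were 5356 higher and 2810 lower over the whole table, and 62 higher and 45 lower in the lists. The median log2 fold change was 0.01 over the listed genes and 0.03 over all tested genes.

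Other surface markers of stem-like or progenitor breast cells moved both ways. Of 17 tested genes, 6 rose, 8 fell and 3 were not called, with a median log2 fold change of -0.02. CXCR4, the receptor of the chemokine CXCL12, was at 43.5, 43.4 and 39.8 CPM in GlnIND libraries 1 to 3, against 0.794, 0.915 and 1.46 CPM in parental libraries 1 to 3. It was 39.8-fold higher, the largest rise among the called surface markers (log2 fold change 5.32, SE 0.174, edgeR adjusted p = 4.11e-08). ST8SIA1, which makes the ganglioside GD3, averaged 0.213 ± 0.208 CPM in GlnIND cells and 5.87 ± 0.992 CPM in parental cells (SD, n = 3 each, log2 fold change -4.78, SE 0.481, edgeR adjusted p = 3.06e-05). NGFR, the low-affinity nerve growth factor receptor CD271, averaged 0.449 ± 0.321 CPM in GlnIND cells and 7.17 ± 1.85 CPM in parental cells (SD, n = 3 each, log2 fold change -3.99, edgeR adjusted p = 2.65e-05). ST8SIA1 in GlnIND libraries 1 and 3, and NGFR in GlnIND library 3, lay under the detection floor, so the sizes of these folds are not well measured. A pair of genes was singled out after their values were seen. ITGA6, the integrin CD49f, fell by 1.27 on a log2 scale to 495 ± 13.7 CPM in GlnIND cells, against 1198 ± 149 CPM in parental cells (SD, n = 3 each, edgeR adjusted p = 2.81e-06). B4GALNT1, which turns GD3 into GD2, rose (log2 fold change 0.78, SE 0.152, edgeR adjusted p = 0.00171).

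Genes that make or bind the CD44 ligand, link CD44 to actin or splice its transcript also moved both ways. Of 17 tested genes, 4 rose, 7 fell and 6 were not called (median log2 fold change -0.10). The epithelial splicing regulators ESRP1 and ESRP2, which promote the variant exons of CD44, changed in opposite directions. ESRP1 was at 2.69, 4.54 and 2.84 CPM in GlnIND libraries 1 to 3, against 0.298, 0.114 and 0.312 CPM in parental libraries 1 to 3 (log2 fold change 3.74, SE 0.398, edgeR adjusted p = 4.25e-05). ESRP2 was at 1.03, 1.17 and 1.38 CPM in GlnIND libraries 1 to 3, against 4.81, 7.84 and 5.77 CPM in parental libraries 1 to 3 (log2 fold change -2.35, SE 0.243, edgeR adjusted p = 3.67e-05). Neither pair of ranges overlapped. ESRP1 was at or below the detection floor in every parental library, so the size of its fold is not well measured. HYAL3, of the hyaluronidase family, rose (log2 fold change 1.44, SE 0.197, edgeR adjusted p = 0.000205). Counts per gene do not resolve the isoforms of CD44.

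In the list of the EPCAM paralogue, its junction partners and proteases, 3 of 13 tested genes rose, 2 fell and 8 were not called, with a median log2 fold change of -0.00. The tetraspanin gene CD82 averaged 26.4 ± 0.991 CPM in GlnIND cells and 118 ± 35.1 CPM in parental cells (SD, n = 3 each, log2 fold change -2.17, SE 0.195, edgeR adjusted p = 1.55e-05). The tight junction gene CLDN4 averaged 5.80 ± 0.469 CPM in GlnIND cells and 24.7 ± 7.59 CPM in parental cells (SD, n = 3 each, log2 fold change -2.09, SE 0.223, edgeR adjusted p = 4.44e-05). In both genes parental library 1 was the lowest of its group, at 78.4 and 16.0 CPM, and still above every GlnIND library. SPINT1, an inhibitor of membrane serine proteases, rose (log2 fold change 1.52, SE 0.342, edgeR adjusted p = 0.00395).

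Of 13 other aldehyde dehydrogenase genes tested, 6 rose, 2 fell and 5 were not called, with a median log2 fold change of 0.42. ALDH5A1, which breaks down succinic semialdehyde from GABA, was at 38.8, 40.4 and 38.0 CPM in GlnIND libraries 1 to 3, against 9.52, 10.1 and 9.67 CPM in parental libraries 1 to 3 (log2 fold change 2.00, SE 0.0919, edgeR adjusted p = 2.64e-07). ALDH7A1, of lysine breakdown, averaged 226 ± 6.28 CPM in GlnIND cells and 151 ± 11.9 CPM in parental cells (SD, n = 3 each, log2 fold change 0.58, edgeR adjusted p = 0.000103). ALDH3B1 rose (log2 fold change 0.56, edgeR adjusted p = 0.0129), a call lost without GlnIND library 1 (adjusted p = 0.0604). The 2 genes that fell numbered 1 when any single library other than parental 2 was left out, and 7 rose and 1 fell with library totals.

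Of the retinoic acid pathway, which ALDH1A enzymes feed, 13 genes were tested, 3 rose, 7 fell and 3 were not called (median log2 fold change -0.52). CYP26B1, which degrades retinoic acid, averaged 22.2 ± 2.50 CPM in GlnIND cells and 8.41 ± 2.06 CPM in parental cells (SD, n = 3 each, log2 fold change 1.40, SE 0.175, edgeR adjusted p = 0.000117). FABP5, a fatty acid carrier that also binds retinoic acid, fell (log2 fold change -1.33, SE 0.132, edgeR adjusted p = 2.87e-05). PLAAT4, a phospholipase-like gene first found as induced by a retinoid, averaged 0.597 ± 0.213 CPM in GlnIND cells and 1.47 ± 0.634 CPM in parental cells (SD, n = 3 each, log2 fold change -1.28, SE 0.408, edgeR adjusted p = 0.0221), a call lost without GlnIND library 1 (adjusted p = 0.0792), GlnIND library 2 (0.0551) or parental library 1 (0.0795). TGM2, a transglutaminase that retinoic acid induces in many cells and that was singled out after its values were seen, averaged 155 ± 4.88 CPM in GlnIND cells and 353 ± 58.1 CPM in parental cells (SD, n = 3 each, log2 fold change -1.19, SE 0.109, edgeR adjusted p = 1.75e-05). RARB, of the same list and also singled out after its values were seen, went the other way. It averaged 1.40 ± 0.491 CPM in GlnIND cells and 0.639 ± 0.145 CPM in parental cells (SD, n = 3 each, log2 fold change 1.14, SE 0.372, edgeR adjusted p = 0.0247). Without GlnIND library 2, 1 gene of the pathway rose in place of 3. CYP26B1 kept its call there, so that of RARB was lost.

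Among 22 tested relatives of SOX9 and KLF4, 9 rose, 4 fell and 9 were not called, with a median log2 fold change of 0.27, and 12 rose and 3 fell with library totals. The largest called changes were rises of low transcripts. KLF8 averaged 6.28 ± 0.779 CPM in GlnIND cells and 0.632 ± 0.0840 CPM in parental cells (SD, n = 3 each, log2 fold change 3.30, SE 0.223, edgeR adjusted p = 2.46e-06). KLF17 and SOX6 rose by 2.58 and 2.52 on a log2 scale (edgeR adjusted p = 0.000661 and 3.97e-05), to 1.92 ± 0.230 and 3.56 ± 0.677 CPM in GlnIND cells (SD, n = 3). In parental libraries 1 and 3 KLF17 was at or below the detection floor.

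Of 18 tested regulators of pluripotency and self-renewal, 5 rose, 10 fell and 3 were not called, with a median log2 fold change of -0.26, and 6 rose and 6 fell with library totals. SALL4, a zinc finger factor of embryonic stem cells, was at 1.66, 2.25 and 2.23 CPM in GlnIND libraries 1 to 3 and had 0 counts in the parental libraries. Against the floor of 6 counts over the group it was 19.5-fold higher (edgeR adjusted p = 5.37e-05). ID4, an inhibitor of basic helix-loop-helix factors, was at 5.20, 4.45 and 4.22 CPM in GlnIND libraries 1 to 3, against 55.7, 47.0 and 46.5 CPM in parental libraries 1 to 3, or 10.8-fold lower in GlnIND cells (edgeR adjusted p = 7.21e-08). Its relative ID2 fell (log2 fold change -1.20, SE 0.317, edgeR adjusted p = 0.00919). The ID genes did not move together. ID1 rose (log2 fold change 0.92, SE 0.106, edgeR adjusted p = 7.48e-05), and ID3 was not called (log2 fold change 0.46, SE 0.186, edgeR adjusted p = 0.0609). ID1 and ID3 were named after their values were seen. SNAI2, which works with SOX9 in mammary stem cells of the mouse and was singled out after its values were seen, rose (log2 fold change 0.53, SE 0.132, edgeR adjusted p = 0.00638). ZEB1 and YAP1, of the same list and also singled out after their values were seen, fell by 0.66 and 1.08 on a log2 scale (edgeR adjusted p = 0.00158 and 1.03e-06).

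In the list of Wnt, Notch and Hedgehog genes 8 of 25 tested rose, 6 fell and 11 were not called (median log2 fold change -0.07). GLI2, a transcription factor of the Hedgehog pathway, was at 7.00, 7.32 and 7.10 CPM in GlnIND libraries 1 to 3, against 0.198, 0.458 and 0.728 CPM in parental libraries 1 to 3, or 15.4-fold higher (edgeR adjusted p = 4.83e-06). In parental library 1 GLI2 was under the detection floor. The Hedgehog genes PTCH1, GLI3 and HHIP were not called (log2 fold changes 0.10, -0.11 and -0.32), and GLI1 did not pass the filter. These were named after their values were seen. RNF43, a ubiquitin ligase that removes Wnt receptors from the surface, averaged 8.23 ± 0.996 CPM in GlnIND cells and 1.62 ± 0.415 CPM in parental cells (SD, n = 3 each, log2 fold change 2.34, edgeR adjusted p = 1.61e-05). The ligand gene WNT5B averaged 2.94 ± 0.386 CPM in GlnIND cells and 14.9 ± 1.20 CPM in parental cells (SD, n = 3 each, log2 fold change -2.34, edgeR adjusted p = 1.79e-06).

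Markers of breast epithelium were split. Of 15 tested genes, 6 rose, 6 fell and 3 were not called, with a median log2 fold change of -0.47. EHF, an epithelial ETS factor, was at 27.1, 31.4 and 31.1 CPM in GlnIND libraries 1 to 3, against 206, 178 and 193 CPM in parental libraries 1 to 3, or 6.44-fold lower in GlnIND cells (edgeR adjusted p = 4.11e-08). The simple-epithelium keratin KRT7 fell (log2 fold change -2.15, SE 0.0955, edgeR adjusted p = 2.21e-07). Its relatives KRT8 and KRT18 fell by 1.12 and 1.45, and the luminal keratin KRT19 rose by 0.44 (edgeR adjusted p = 2.11e-06, 2.04e-06 and 0.000857), the last 3 singled out after their values were seen. OXTR, the oxytocin receptor, rose by 2.81 on a log2 scale to 4.22 ± 0.241 CPM in GlnIND cells, against 0.597 ± 0.0259 CPM in parental cells (SD, n = 3 each, edgeR adjusted p = 7.26e-06). ERBB2, which encodes HER2, rose by 0.82 and VIM by 0.61 on a log2 scale (edgeR adjusted p = 0.000112 and 5.16e-05).

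Markers of other cell types were checked as well. Of 18 such genes, 7 were tested, 4 rose and 0 fell (median log2 fold change 0.85), and CD3E, HBB and ALB were at 0 in every library. Summed over the list, the level was 206 to 209 CPM in GlnIND libraries and 175 to 220 CPM in parental libraries. Most of it was CD68, a lysosomal gene at 177 ± 1.17 CPM in GlnIND cells and 178 ± 21.8 CPM in parental cells (SD, n = 3 each). Without CD68, a sum chosen after the values were seen, the ranges were 29.7 to 32.0 CPM in GlnIND libraries and 16.2 to 18.7 CPM in parental libraries. LUM, a proteoglycan of connective tissue, was at 1.79, 2.25 and 2.99 CPM in GlnIND libraries 1 to 3 with 0 counts in the parental libraries. Against the same floor it was 22.5-fold higher (edgeR adjusted p = 6.51e-05). PDGFRB, a receptor of fibroblasts and pericytes, and COL1A1, a collagen gene, rose by 1.52 and 1.29 on a log2 scale (edgeR adjusted p = 0.000407 and 0.00014). The other 3 connective-tissue genes of the list did not pass the filter on low counts and were named after their values were seen. Over the GlnIND and parental libraries, COL3A1 had 24 and 0 counts, PDGFRA had 20 and 2, and DCN had 0 and 3. The part of these markers in the values of the 8 genes was not tested.

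**Figure D4:**
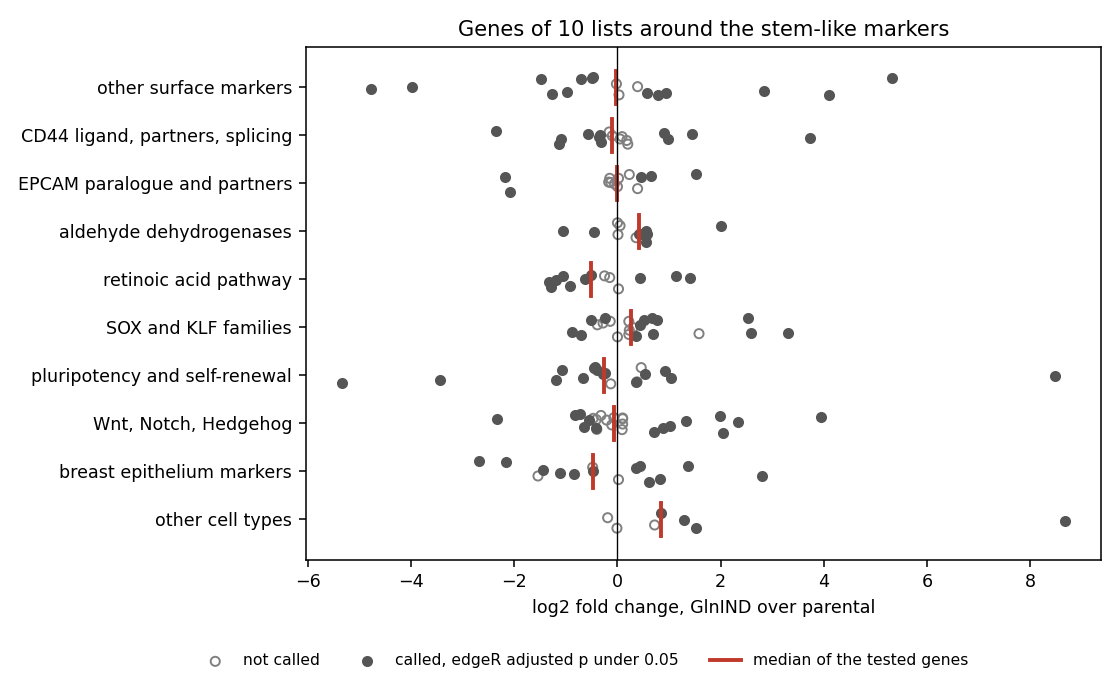
Log2 fold change, GlnIND over parental, of each tested gene in the 10 lists, with filled points for genes called by edgeR at an adjusted p under 0.05, open points for genes not called and a red line for the median of each list. The medians run from -0.52 for the retinoic acid pathway to 0.85 for markers of other cell types, and every list holds called genes at positive values. The points beyond 8 are SALL4 and LUM, which had 0 parental counts, so their fitted position is no measured fold.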

How the data were processed

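The samples were 6 libraries of polyA RNA from MDA-MB-231GlnIND and parental MDA-MB-231 cells, grouped by their titles. The authors deposited raw counts of reads by gene symbol, as a table for each library and as a matrix. The build was hg19, and FastQC, STAR, featureCounts and DESeq were used, per the submitters' processing notes. Versions, annotation, strandedness and the handling of multiply mapped reads are not given in the sources used here, so antisense, overlapping and near-identical genes may share or lose counts. The matrix held the same values with the names of replicates 1 and 3 exchanged within each group (100.0% of genes equal), and replicate numbers follow the tables.

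The deposited counts went unchanged into edgeR 4.0.16 (R 4.3.3; glmQLFit, glmQLFTest, two-sided), with TMM factors, filterByExpr (minimum count 10, minimum total 15) and the group alone in the design. SE came from the F statistic. Where a group had 0 counts, the fold is set against 6 counts in that group, on the scale of TMM library sizes. It leaves out the counting error of the other group and is thus no strict lower bound. An exact permutation test over 3 and 3 libraries reaches 0.1 at best, hence the use of the fit across all genes. Scripts were tested on simulated data.

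The 8 members and the 10 lists were chosen with earlier results of these data known. From each list the 3 called genes that changed most, with a mean CPM of 1 or more, were named, with ESR1, PGR, ERBB2 and VIM, and for each member that passed the filter the 1 gene most correlated with it among those with a mean CPM of at least 5. All 223 listed genes had a row in the tables, 1 of them under a newer symbol. Alternatives were RLE and upper-quartile factors, library totals, no filter, a filter on CPM (1 or more in 3 libraries), omission of each library, a block for replicate numbers, limma-voom (limma 3.58.1) and DESeq2 1.42.0. Floors cover counting error only.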

Additional observations from a re-analysis of the deposited data

How the results depend on the processing

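The log2 fold changes of CD24, CD44, EPCAM and SOX9 kept their direction under every alternative run, and ALDH1A3 and KLF4 did not. Under upper-quartile factors and under library totals, the values were 1.67 and 1.73 for CD24, -0.21 and -0.15 for CD44 and 0.03 and 0.09 for KLF4, with the median of all tested genes at 0.12 and 0.18. When each library was left out in turn, the range was 1.53 to 1.63 for CD24, -0.37 to -0.25 for CD44, -2.83 to -2.53 for EPCAM, -0.79 to -0.53 for SOX9, -0.07 to 0.24 for ALDH1A3 and -0.19 to -0.00 for KLF4. The called genes of the lists then numbered 51 to 62 higher and 48 to 57 lower, and those among all tested genes 3151 to 4601 higher and 3337 to 4679 lower. Deviations of same-numbered libraries from their group means had correlations of -0.0629, 0.0299 and -0.037 for replicates 1, 2 and 3. Those of differently numbered libraries ran from -0.0598 to 0.0757. With 3 libraries per group, and no statement in the labels, these values cannot decide whether the numbers pair the libraries. With the replicate block 3719 genes were called higher and 3584 lower over the whole table, 56 and 49 in the lists, and CD24 stood at 1.58. Of 545 values of 39 named genes outside the 8 under these alternatives, 540 kept their direction and side of the threshold. The other 5 lost the call, 1 of ALDH3B1 and 4 of PLAAT4, among them that with the replicate block (edgeR adjusted p = 0.0507). RARB, ID1, ID3, ZEB1, YAP1, PTCH1, GLI3 and HHIP were not among these 39 genes. PROM1 and ALDH1A1, limited by depth to at most 8 counts in a library, are not reported under the alternatives. The fit with no filter included both, and its values for them are not given.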
